A study of Caenorhabditis elegans with 2 samples.

Results

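The regions described here were places of weak AHR-1 ChIP-seq signal whose summit lay in the 3′ untranslated region (3′ UTR) of a coding gene. The pooled list they come from is labelled as holding peaks and background, so a region in it need not be bound. They were selected on the pooled signal, as regions of the list from both replicates pooled that were not in the list thresholded by IDR (a method that keeps regions ranking alike in replicates). By position, the summit lay over 250 bp from every tRNA, snoRNA, snRNA, miRNA, rRNA or piRNA gene. It also lay outside the window from 500 bp upstream to 200 bp downstream of every coding 5′ end, in no coding sequence, and inside an annotated 3′ UTR. This rule gave 276 regions of the 13858 in the pooled list, with 267 host genes when each summit is given 1 host. The summits of 3 members lay in the UTRs of 2 genes each, so 270 genes had a member's summit in a UTR. The pooled list placed 479 regions in the IDR list (3.46%), which left 13379 sub-threshold regions, and the 276 were 2.06% of those.

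The study was chromatin immunoprecipitation sequencing (ChIP-seq) of AHR-1 in *Caenorhabditis elegans* late embryos, collected 3.5 h after synchronization by egg bleaching. Strain OP562 carries unc-119(tm4063) on chromosome III and the transgene wgIs562, which expresses AHR-1 fused at its C-terminus to GFP and FLAG, and the precipitation used an antibody against GFP on sonicated chromatin of whole hermaphrodites. There was 1 group with 2 biological replicates and no other condition, so nothing was compared between conditions and no test was run. Embryos hold all tissues together, so a weak region in every cell and a strong region in few cells cannot be told apart. Neither can be told apart from background without binding. The depth of sequencing is unknown from the sources. Replicate 1 had 22949 listed regions and replicate 2 had 23313.

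AHR-1 is the worm relative of the vertebrate aryl hydrocarbon receptor, a transcription factor of the bHLH-PAS family that binds DNA with a bHLH-PAS partner, AHA-1 in worms. The vertebrate pair is known for binding DNA that holds the core GCGTG, and worm AHR-1 acts in the fate of several neuron types. A 3′ UTR follows the stop codon in the mRNA and carries the polyadenylation signal, commonly AATAAA, near its end. Worm genes lie close together, so the DNA of a 3′ UTR is often also the upstream DNA of the next gene or faces the end of a gene on the other strand.

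Short stretches of the reference around the core are printed for members of the 3′ UTR set, since the core is the sequence AHR proteins are known to bind. The first 3 stretches are from members whose summit lay within 100 bp of the extended core TNGCGTG, and the next 3 are from the members of highest signal with the shorter core alone. The last is from the zig-11 3′ UTR, where a region of the IDR list met the same position rule. Capitals mark the motif, and each line reads 5′ to 3′ on the strand that holds it, in the RefSeq genome of build WBcel235 (ce11).
spex-3 (chrIII:1701749-1701775, minus strand): aaatctgtttTCGCGTGcaaatttgtg
hel-1 (chrII:8326914-8326940, plus strand): tcaaatttttTTGCGTGtagttggaaa
F07E5.13 (chrII:2060121-2060147, minus strand): tgtgagcactTTGCGTGaggcgatcga
egl-45 (chrIII:7824538-7824562, plus strand): gattatagatGCGTGtgattttata
F10D7.10 (chrX:17378432-17378456, minus strand): gctgttcaacGCGTGaaaaactggg
pigw-1 (chrII:2877770-2877794, minus strand): cattttgtggGCGTGgcctaatacg
zig-11 (chrV:1875788-1875814, plus strand): gcgcgttgttTAGCGTGttgagaattt

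Another 3 stretches show AATAAA, the common form of the polyadenylation signal, beside a summit. AATAAA was chosen as the most frequent of the motifs searched in these windows. Its share was 48.9% there, against 59.97% at eligible 3′ UTR positions. The stretches come from 6 members of high signal near the end of the UTR, of which the 3 with the motif closest to the summit are printed, chosen after their values were seen and read on the strand of the gene. In the other members of those 6 it lay 90 bp from the summit in vab-1, 60 bp in cfz-2 and 49 bp in pod-2. The motif lay 15 bp from the summit in K02E11.6, 17 bp in unc-33 (a relative of the vertebrate CRMP proteins of axon growth) and 18 bp in sur-5. Whether any of the printed motifs serves as the polyadenylation signal of its gene was not tested.
K02E11.6 (chrV:14251481-14251506, plus strand): tttgtgtttcAATAAAatacatttat
unc-33 (chrIV:3526569-3526594, plus strand): tttacacataAATAAAggaattttat
sur-5 (chrX:7301453-7301478, minus strand): gtcatcaaaaAATAAAtccctgtgaa

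The 276 regions were all 444 bp wide and weak by construction. The authors' signal, which is on a scale of its own in each list, had its lowest value at 26.7, its quartiles at 28.8 and 38.5, its median at 32.8 and its highest value at 57.6. All 13379 sub-threshold regions had a median of 32.5, those in coding exons 31.6, those in introns 32.3 and those in distal intergenic sequence 32.2. The authors' −log10 q values of the members had a median of 0.0943 and a highest value of 1.17, against 1.94 to 2.87 in the IDR list. The limit between the lists lay between the highest sub-threshold region, with a signal of 69.159 at rank 480, and the lowest IDR region, with 69.2478 at rank 479. The highest member, in melo-1, had 57.6 at rank 755, so that 275 regions of other kinds stood between the IDR list and the 3′ UTR set.

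Few of these regions stood near the top of the sub-threshold list. Ranks 480 to 1000 held 4 members among 521 regions (0.768%, 95% Wilson interval 0.299 to 1.96%), and ranks 1001 to 2000 held 27 among 1000 (2.7%, 1.86 to 3.9%). Further down the share was 2.4% at ranks 2001 to 4000, 1.97% at 4001 to 7000, 1.77% at 7001 to 10000 and 2.2% at 10001 to 13858. The share of the 3′ UTR set was thus lowest in the first bin and showed no steady course after it. Coding exons had 5.76% of ranks 480 to 1000 and 19.7% of ranks 10001 to 13858.

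**Figure D1:**
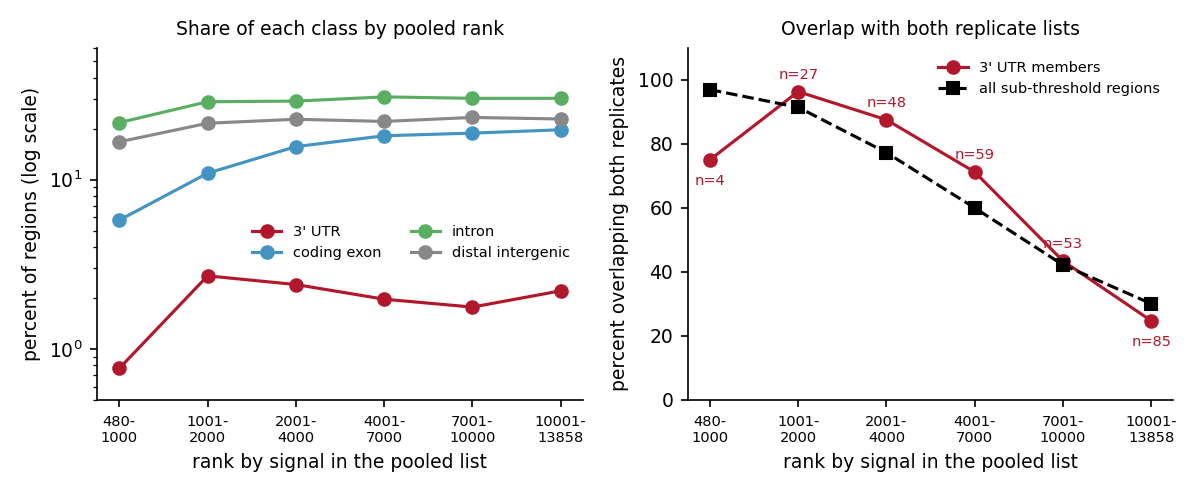
The left plot gives the percent of pooled regions in each position class (log scale) by bins of pooled rank, and the right plot the percent that overlapped a region in both replicate lists, for the 3′ UTR members and all sub-threshold regions, with n the number of members per bin. The 3′ UTR share is lowest, at 0.768%, at ranks 480 to 1000, and the overlap of the members is 96.3% at ranks 1001 to 2000 against 24.7% at ranks 10001 to 13858.

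Measured against the sequence in which a summit could fall, the 3′ UTR set was the sparsest of the 4 classes compared in the pooled list and in replicate 1, and not in replicate 2. The sequence that met the position rule came to 2.69 Mb, or 2.68% of the genome, and held 103 sub-threshold regions per Mb. Coding exons held 113 per Mb, distal intergenic sequence 123, introns 142 and the genome as a whole 133. In the list of replicate 1, regions that overlapped no IDR peak stood at 194 per Mb of 3′ UTR (522 regions), against 214 in coding exons, 205 in intergenic sequence and 238 in introns. In the list of replicate 2 the 3′ UTR density was 226 per Mb (606 regions), against 200 in coding exons, 213 in intergenic sequence and 238 in introns. The order of 3′ UTRs beside coding exons and intergenic sequence therefore differed between the replicate lists. Among pooled regions of rank 6929 or better, 3′ UTRs held 51.4 per Mb, against 48.2 in coding exons, 57.3 in intergenic sequence and 67.2 in introns.

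**Figure D2:**
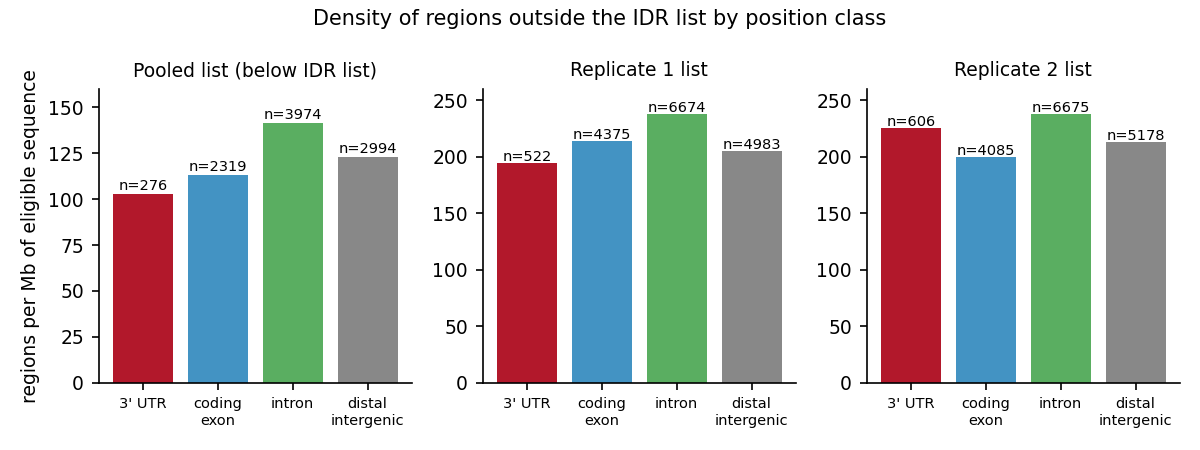
Bars give the number of regions outside the IDR list per Mb of sequence eligible for each position class, in the pooled list and in each replicate list, with n the number of regions. The 3′ UTR bar is the lowest of the pooled list, at 103 per Mb, and lies above coding exons and intergenic sequence in replicate 2, at 226 per Mb.

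The 276 regions were unevenly spread over the chromosomes. Density was 151 per Mb of eligible 3′ UTR on chromosome III (63 members) and 130 on chromosome I (54), against 63.8 on the X (36). Chromosome IV had 111 per Mb (42 members), V had 88.9 (43) and II had 88.5 (38). Chromosome III was also highest and the X lowest in each replicate list, with 255.8 per Mb on III and 144 on the X in replicate 1, and 289 on III and 167 on the X in replicate 2. For all sub-threshold regions the densities ran from 112.4 per Mb on chromosome V to 166 on III, with 124 on the X. The part of each chromosome from 25% to 75% of its length held 41.3% of the members, against 56.2% of the eligible 3′ UTR positions. The corresponding shares were 48.9% of regions against 58.8% of positions in coding exons and 33.04% against 43.9% in introns.

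The strongest members lay in genes of varied function, and their ranks in the replicate lists were uneven. The top member lay in the 3′ UTR of melo-1, on chromosome IV from 14790459 to 14790902, with a replicate 1 region of signal 30.9 at rank 1778 and a replicate 2 region of 22.6 at rank 1386. It stood 137 bp from the convergent end of gdi-1, and 326 bp downstream of a 5′ end of melo-1 itself. The annotated UTR there is 3038 bases long in the longest isoform and 180 in the shortest one that holds the summit. The next lay in vab-1, the Eph receptor of the worm, on chromosome II from 4590641 to 4591084, with a pooled signal of 57.4 at rank 767. It overlapped no region in replicate 1 and the region of signal 36.8 at rank 344 in replicate 2. It thus rested on the list of replicate 2, in which no other member had a higher rank.

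The next member, in egl-45, a subunit gene of translation initiation factor eIF3, had a pooled signal of 56.0, with 33.5 at rank 1244 in replicate 1 and 19.5 at rank 2569 in replicate 2. It is the member on chromosome III from 7824385 to 7824828 whose core is printed above, 57 bp from the summit. The member in srpa-72, the gene of the SRP72 subunit of the signal recognition particle, had 52.7, with 31.2 at rank 1713 in replicate 1 and 14.9 at rank 7578 in replicate 2. This summit lay 484 bp from the converging end of nhr-119, a nuclear hormone receptor gene, whose own UTR held another member 906 bp from the first. That member had a pooled signal of 43.2 at rank 2155, and these were the only neighbouring members within 2000 bp whose hosts were different genes.

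let-92, the catalytic subunit gene of protein phosphatase 2A, held a member of signal 52.4, which replicate 2 listed at rank 501 and replicate 1 at rank 8475. This summit was also 770 bp upstream of the 5′ end of mob-1. slc-30A9, of the zinc transporter family, held a member of 51.9, at rank 1919 in replicate 1 and rank 411 in replicate 2. The remaining members of the top 10 lay in rga-9 (a RhoGAP gene) with 50.7, tpxl-1 (the activator of Aurora A kinase) with 50.3, F10D7.10 with 50.2 and Y46G5A.18 with 50.1. Of these 10, 9 overlapped a region in both replicate lists, all but the member in vab-1. Such overlap was common at these ranks. It was found for 96.9% of all sub-threshold regions at ranks 480 to 1000 and for 91.4% at ranks 1001 to 2000. Ranks in a replicate list went down to 13634 for F10D7.10 in replicate 2, against 1235 in replicate 1.

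At the other end of the list, pkc-3 (atypical protein kinase C) held the member of lowest signal, 26.7 at rank 13844, which overlapped a replicate 1 region at rank 22258 and none in replicate 2. The members in swsn-1, a SWI/SNF remodelling subunit gene, and uri-1 overlapped a region of replicate 2 and none of replicate 1, at ranks 11680 and 6132. Each of these 3 weakest members was therefore found in 1 replicate list.

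Across the set, 157 of 276 regions overlapped a region in both replicate lists by at least 1 bp (56.9%, 95% Wilson interval 50.99 to 62.6%), beside 53.7% of all sub-threshold regions. Another 66 overlapped replicate 1 alone, 49 replicate 2 alone and 4 neither. Since the pooled list holds the reads of both replicates, this overlap is no independent check. The share was 46.8% in coding exons, 53.5% in introns and 53.9% in distal intergenic sequence. It was 81.9% (113 of 138) among members ranked 6929 or better and 31.9% (44 of 138) among the lower ones, beside 73.3% and 35.5% for the same split of all sub-threshold regions. Summits in both replicates within 100 bp of the pooled summit were found for 29.3% of members, against 25.4% of all sub-threshold regions.

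Where both replicates had a region, their signals can be set side by side. Over the 157 members, Spearman's rho between the replicate signals was 0.09 as a description of regions that share the same pair of libraries, against 0.16 over 7187 sub-threshold regions and 0.64 over the 479 of the IDR list. Since IDR keeps regions that rank alike in replicates, the gap to the IDR list is built into the rule that chose the members. Over all 276 members, 7 regions of replicate 1 and 6 of replicate 2 were shared between members. The 157 pairs of signals are therefore not all distinct. Replicate signals of members ran from 15.3 to 38.99 in replicate 1 (median 22.9) and from 10.2 to 36.8 in replicate 2 (median 14.98). None of the members overlapped the 479 strongest regions of replicate 1, which allows a share of up to 1.09% (3 counts of 276, counting error only), and 4 overlapped those of replicate 2 (1.45%). The shares over all sub-threshold regions were 1.46% in replicate 1 and 1.55% in replicate 2. The 4 members lay in vab-1, in slc-30A9 (a pair of members on the same replicate region) and in zig-11.

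**Figure D3:**
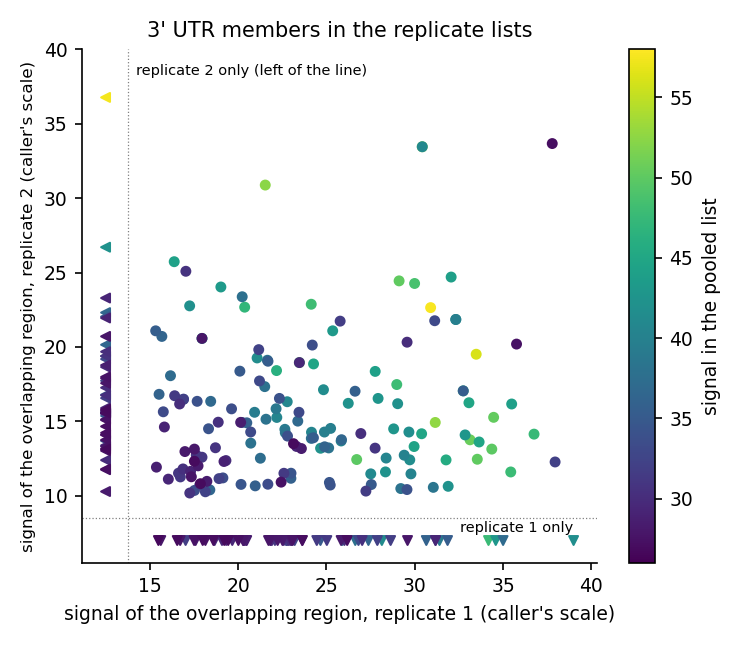
Each point is a 3′ UTR member placed by the signal of the strongest overlapping region in replicate 1 (horizontal) and replicate 2 (vertical), on the caller's scale of each list, coloured by pooled signal. Triangles along the lower and left edges are the 66 and 49 members with a region in replicate 1 alone and replicate 2 alone, and the 157 points between show no clear slope (rho 0.09).

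The position rule was met by 2 regions of the IDR list as well. The IDR region in zig-11, a gene of the immunoglobulin family, lay on chromosome V from 1875504 to 1875947 with a pooled signal of 74.7 at rank 422, with 37.8 at rank 742 in replicate 1 and 33.7 at rank 406 in replicate 2. A member with its summit 210 bp away, at signal 27.2 and rank 13097, overlapped those same replicate regions, so its high replicate ranks are shared with the IDR peak. Without it, the best ranks in both replicates belonged to Y46H3D.1, at 1503 and 995, and to the pair of members in unc-34, at 1450 and 1600. The replicate summits at Y46H3D.1 lay 187 and 227 bp from that of the member, which had another pooled summit 217 bp away. The pair in unc-34 overlapped the same region in each replicate. Those replicate 1 and replicate 2 summits lay 294 and 68 bp from the first member, and 12 and 350 bp from the second. unc-34 is the worm Enabled gene, which acts in actin assembly. The other IDR region, in nhr-102, had 80.1 at rank 371, and the replicate regions it overlapped had summits 169 and 196 bp away, with another pooled summit 200 bp off.

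The share of members near strong peaks was small and close to that of all sub-threshold regions. The distance to the nearest IDR summit had a median of 72009.5 bp, and 4 members lay within 1000 bp (1.45%), against 0.803% of eligible 3′ UTR positions and 1.32% of all sub-threshold regions. Besides zig-11, these were in sesn-1 (sestrin) at 770 bp, serp-1.1 at 839 bp and Y48G10A.3 at 990 bp. The sequence of 51 bases at the summit had another copy in the genome for 1 member, in F46A8.5.

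Members were denser in long 3′ UTRs than in short ones. UTRs of 401 to 800 bases held 139 per Mb (94 members) and longer ones 145 (76 members), against 71.1 in UTRs of up to 200 bases (55) and 71.7 in those of 201 to 400 (51). Both replicate lists were also denser in UTRs over 400 bases. Replicate 1 had 223 and 255.9 per Mb in UTRs of 401 to 800 bases and in longer ones, against 158 and 162 in the shorter classes. Replicate 2 had 282 and 306 against 175 and 169, so the order of the shorter classes differed between the lists. The UTR over a member's summit had a median length of 540 bases, against 352 over eligible bases. Overlap with both replicates was 67.02% for members in UTRs of 401 to 800 bases and 55.3% above, against 49.1% and 49.02% in the shorter classes. Median signals were 33.1 and 34.8 in the longer classes, against 31.2 and 31.8 in the shorter ones. The longest host UTR, in Y50D7A.3, spans 3078 bases, and its member had a signal of 37.01 with the summit 556 bases past the stop codon.

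Along the UTR the summits were spread widely. The median position was 44.4% of the way from the stop codon to the end, against 48.2% for eligible bases. The 20% of the UTR next to the stop codon held 68 members (24.6%, against 21.2% of eligible bases) and the 20% at its end held 44 (15.9%). Summits lay a median of 181 bases past the stop codon (139 for eligible bases), with 57 within 50 bases of it and 41 within 50 bases of the UTR end. Because the regions are wider than many UTRs, 169 of 276 reached into coding sequence and 66 were wholly 3′ UTR. The median region was 68.0% 3′ UTR and 12.05% coding sequence.

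**Figure D4:**
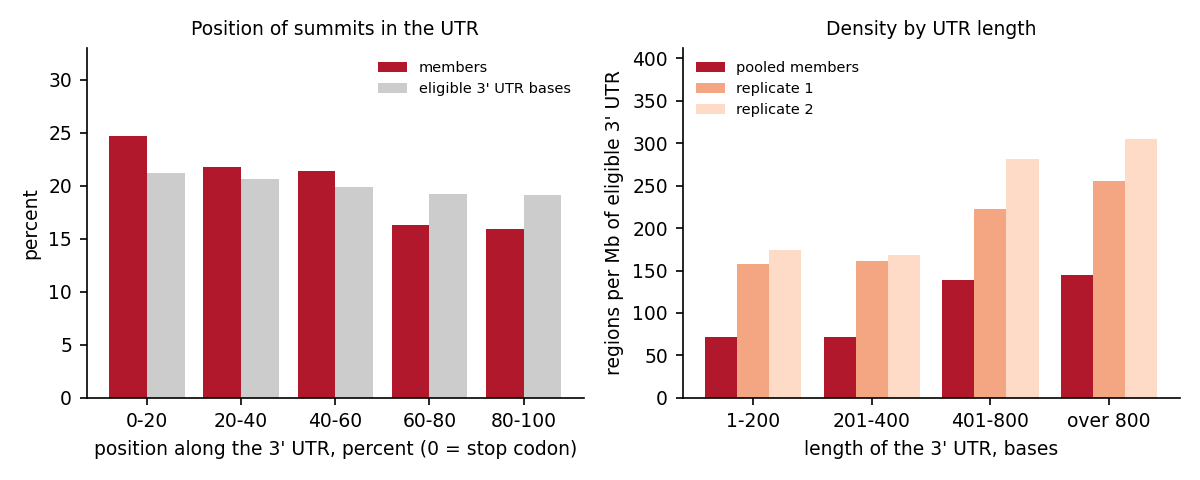
The left plot gives the percent of member summits and of eligible 3′ UTR bases by position along the UTR in 5 equal steps from the stop codon. The right plot gives regions per Mb of eligible 3′ UTR by UTR length in the pooled list and both replicate lists, from 71.1 per Mb in UTRs of up to 200 bases to 145 per Mb in those over 800 bases for the pooled members.

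Seen from the neighbouring genes, the 3′ UTR set was mixed. The nearest coding 5′ end belonged to a gene other than the host for 160 of 276 members (57.97%). The summit was upstream of that nearest 5′ end for 91 members, and 501 to 1500 bp upstream for 56. Examples are the pair of members in epg-3, an autophagy gene, which lay 1381 and 1182 bp upstream of unc-25, the gene of the enzyme that makes GABA. Their signals were 31.9 and 29.4, and both overlapped the same replicate 1 region at rank 1709 and none in replicate 2. A convergent coding 3′ end lay within 500 bp of 69 members (25%, 95% Wilson interval 20.3 to 30.4%). Neither this share nor those of the 5′ ends were counted over eligible 3′ UTR positions. They therefore cannot be read as particular to the members. Besides the 3 summits in the UTRs of 2 genes, 9 lay in another gene's exon, 4 of them in pseudogenes, 3 in 2 noncoding RNA genes and 2 in coding genes, which makes 12 of 276. Another 23 members were intronic in another transcript of their host.

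No host gene held more than 2 members, and 9 held 2. In 7 of these the regions overlapped, with summits 199 to 282 bp apart, so these pairs share sequence and are not separate places. They were gly-3 (a GalNAc transferase gene), epg-3, pde-6 (a phosphodiesterase gene), slc-30A9, wars-1 (tryptophanyl-tRNA synthetase), sesn-1 and unc-34. In dot-1.1, of the H3K79 methyltransferase family, the summits were 875 bp apart, and in W06H8.6 they were 994 bp apart. Their signals were 29.4 and 27.7 in dot-1.1, and 36.8 and 28.2 in W06H8.6.

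The bases around the summits were poor in G and C. Within 100 bp of the summit, members had a median GC content of 34.8%, against 32.3% at all eligible 3′ UTR positions, 38.8% in all sub-threshold regions and 43.8% in the IDR list. The shift of sub-threshold regions above their eligible positions was also present in coding exons (42.3% against 39.8%), introns (36.8% against 33.3%) and distal intergenic sequence (37.8% against 33.3%). F10D7.10 had the highest GC content of the set at 57.7%, and 2 members reached 50%. Signal and GC content had a Spearman's rho of 0.03 over the 276 members, all from the same pooled libraries.

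The core GCGTG, counted on either strand within 100 bp of the summit, was present at 34 members (12.3%, 95% Wilson interval 8.95 to 16.7%). It was present at 7.89% of all eligible 3′ UTR positions, 16.0% of all sub-threshold regions and 40.3% of the IDR list. In the other classes, regions had 12.6% in coding exons against 10.7% of their eligible positions, 14.5% against 9.73% in introns and 15.7% against 9.74% in distal intergenic sequence. The core was at 13 of 138 members ranked 6929 or better (9.42%) and at 21 of 138 of the others (15.2%). Over all sub-threshold regions it was at 18.1% of those ranked 6929 or better and at 14.17% of the others, and the difference between these splits was not tested. Members with the core overlapped both replicates in 19 of 34 cases (55.9%), and those without it in 138 of 242 (57.0%). Their median GC content was 38.6% with the core and 34.3% without, and the part of base composition in these shares was not tested.

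The extended form TNGCGTG, each instance of which also holds the core, was at 7 members (2.54%), against 2.28% of eligible 3′ UTR positions, 4.49% of all sub-threshold regions and 9.81% of the IDR list. Of these 7, 3 are printed above and 4 lie on chromosome I. Of the printed 3, spex-3 had a pooled signal of 35.9 at rank 4820, above the members' median of 32.8. hel-1 (a DEAD-box RNA helicase gene) had 28.3 at rank 11586 and F07E5.13 had 27.8 at rank 12287, both below it. The F07E5.13 summit lay 35 bases before the UTR end, and its core 41 bp from the summit, beyond that end. This summit was also in an exon of the pseudogene F07E5.6, and 39.6% of the region was 3′ UTR. Only spex-3 of the 3 overlapped both replicates, at ranks 10074 and 7621. The strongest of all 7 was a member in pde-6, with 49.4 at rank 1258, listed at rank 6086 in replicate 1 and 2928 in replicate 2.

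The other motifs were mostly within a few percentage points of the eligible positions, apart from AATAAA, the GATA site and the run of T. The motif AATAAA was near 135 summits (48.9%), against 59.97% of eligible positions and 32.3% of all sub-threshold regions. On the strand of the gene it was near 72 summits and on the opposite strand near 87. Its share was also below that of eligible positions in the other classes. It was 22.5% against 24.6% in coding exons, 31.1% against 38.9% in introns and 34.6% against 42.3% in intergenic sequence. A run of 8 T was near 105 summits (38.0%), against 29.9% of eligible positions, with 87 on the strand of the gene and 34 on the other. The run of T was at 10.7% against 8.18% in coding exons, 28.2% against 30.6% in introns and 25.3% against 25.9% in intergenic sequence. For both motifs the strands were not counted apart at eligible positions, so the strand split cannot be read as particular to the members. TGATAA, a site of GATA factors, was near 13.77% of summits against 21.5% of eligible positions. In regions of the other classes, TGATAA was at 14.14% against 17.98% in coding exons, 12.1% against 16.6% in introns and 12.3% against 17.5% in intergenic sequence. GAGAGA was near 14.5% against 13.69%, TTTCAG (a splice acceptor form) near 32.2% against 29.2%, ACGTG (the core bound by HIF-type partners) near 15.6% against 14.4%, and CACGTG, which contains ACGTG, near 3.99% against 2.81%.

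**Figure D5:**
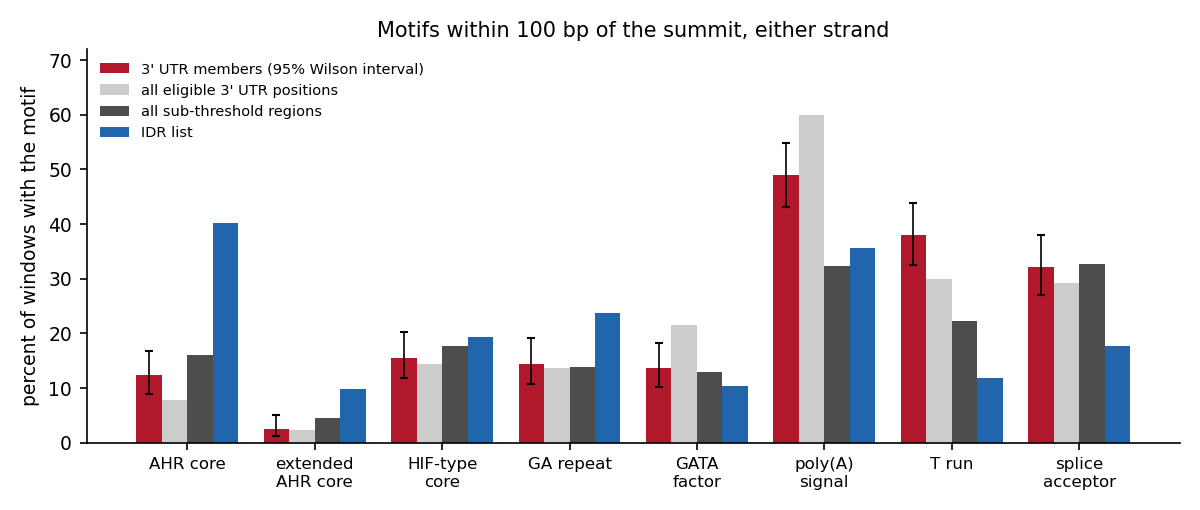
Bars give the percent of windows of 100 bp each side of the summit that hold each motif on either strand, for the 3′ UTR members (with 95% Wilson intervals, counting error only), all eligible 3′ UTR positions, all sub-threshold regions and the IDR list. The AHR core is at 12.3% of members, 7.89% of eligible positions and 40.3% of the IDR list.

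The 267 host genes were 1.97% of the 13577 coding genes with an eligible 3′ UTR, and their longest UTRs had a median of 537 bases against 139. A longer UTR offers more bases to a summit, so part of this gap follows from how hosts are defined. Counted per base, the medians were 540 at member summits against 352 over eligible bases. The gene lists with hosts had from 5.87 kb (respiratory chain) to 36.0 kb (nuclear hormone receptors) of eligible UTR, so their host counts are not directly comparable. Members per Mb ran from 72.3 (homeobox, 2 members) to 239 (Wnt, Notch and TGF-β, 4 members), beside 103 over all eligible 3′ UTRs. Counts this small set no order among the lists. Genes of the Wnt, Notch and TGF-β pathways held 4 hosts among 50 genes with an eligible UTR. These were cfz-2 (a Frizzled receptor gene) with a signal of 47.7, kin-19 (casein kinase 1) with 32.3, daf-5 (a Sno and Ski family gene of the dauer pathway) with 28.0 and lit-1 (Nemo-like kinase) with 27.8. Of these 4, kin-19 overlapped both replicate lists, cfz-2 replicate 1 alone at rank 1134, and daf-5 and lit-1 replicate 2 alone at ranks 16056 and 4010. Nuclear hormone receptor genes held 4 hosts among 208, namely nhr-97 with 44.8, nhr-119 with 43.2, nhr-25 (the Ftz-F1 relative) with 35.2 and nhr-274 with 28.4. Splicing and RNA-binding genes held 3 hosts among 52: hrpa-2 (an hnRNP A gene) with 36.6, rsp-8 (an SR protein gene) with 28.2 and rnp-8 with 27.8.

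Vesicle trafficking genes held 3 hosts among 94, rab-18 with a signal of 42.6, sec-12 with 34.1 and vps-41 with 31.2. The cytoskeleton list held 2 among 50, unc-34 with 41.6 and klp-20 (a kinesin-II motor gene) with 38.2. Chaperone genes held 2 among 51, hsp-3 (an ER chaperone of the BiP type) with 39.7 and dnj-4 with 30.1. The homeobox list held 2 among 92, ceh-18 (a POU homeobox gene) with 40.8 and lim-8, matched by its name, with 33.6. Collagens (col-83, signal 33.1) and body muscle genes (the actin gene act-4, 33.5) had 1 host each, among 130 and 37. The respiratory chain list had 1 among 29, cytb-5.1, a cytochrome b5 gene matched by its name, with 26.9.

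No member lay in the UTRs of 8 of the lists. These were cytosolic ribosomal proteins (46 genes with an eligible UTR), translation factors (25), histones (14), bHLH genes (37), neuropeptides and insulin-like peptides (134), the AHR and HIF pathway (9), cell adhesion and extracellular matrix (43) and proteasome and ubiquitin genes (79). The eligible UTR sequence differed widely, from 2.73 kb for the AHR and HIF pathway to 24.8 kb for neuropeptides and 36.0 kb for nuclear hormone receptors. It was 3.14 kb for ribosomal proteins, 3.18 kb for histones, 5.88 kb for translation factors and 9.7 kb for bHLH genes. Proteasome and ubiquitin genes had 17.2 kb, and cell adhesion and matrix genes 18.4 kb. Each of the 8 lists thus held at most 0.924% of the eligible sequence. A count of 0 allows up to 3 counts (counting error only), so these counts do not show an absence. The lists were matched by gene name and need not hold every gene of a function. egl-45, for example, is a host and a translation initiation gene whose name the translation list did not match. Other hosts with the functions of these lists may likewise stand outside them, so the counts hold for the listed genes only. No pooled summit lay in the 3′ UTRs of ahr-1 itself (34 bases), of its partner aha-1 (234) or of unc-119 (181), and the nearest pooled summits were 374, 1496 and 560 bp away.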

How the data were processed

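Peak lists of 2 biological replicates and of the pooled reads, and the IDR list, were deposited by the authors. Their signal values and −log10 q values, as deposited, are the authors' own and were used only within a list. The sources used here do not give the caller, aligner, IDR threshold, treatment of multiply mapped reads or depth. The ce11 lists were used, and the ce10 lists were not. Ensembl release 115 gave the genes and RefSeq the sequence of WBcel235. Software was pandas 2.3.3, numpy 2.4.6, matplotlib 3.10.9 and scipy 1.17.1 under Python 3.11.15. The classification was checked against a direct search on seeded positions.

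Members were set beside every position that met the same rule, and beside sub-threshold regions in coding exons, introns and distal intergenic sequence. No test was run. Wilson intervals at 95% cover counting error only. ACGTG and TGATAA replaced shorter or degenerate forms planned at first. Members and gene lists were chosen with earlier results of these data known. Named genes were the hosts of the 10 strongest and 3 weakest members, of the 5 of best rank in both replicates, of 2 members and of TNGCGTG outside chromosome I, the IDR peaks in 3′ UTRs, up to 3 hosts per list, ahr-1, aha-1 and unc-119. Others, such as lit-1, nhr-274, unc-33 and pigw-1, were chosen after their values were seen. Alternatives changed the position rule, the list, the overlap and the windows.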

Additional observations from a re-analysis of the deposited data

How the results depend on the processing

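Of 35 alternatives over 9 results, 20 stayed within the spread or within 1.5 times the count given in the report, and 15 moved. A replicate list in place of the pooled one gave 522 to 606 regions and 194 to 226 per Mb, and pooled ranks of 6929 or better gave 138 and 51.4. Overlap with both replicates was 44.6% where 50% of the member had to be covered, 29.3% with summits within 100 bp and 81.9% at ranks of 6929 or better. Windows of 250 bp raised GCGTG to 27.2% of members and GC content to 36.2%. An IDR summit lay within 500 bp of 0.362% and within 2000 bp of 3.99% of members, and a convergent end within 250 bp of 13.0% and within 1000 bp of 33.7%. These follow from the wider or narrower limits themselves. A promoter window of 1500 bp upstream to 500 bp downstream left 200 members with GCGTG at 13.5%. No paired analysis was possible because there is 1 group. Without read counts, depth sets no stated limit, and the weak −log10 q values and low agreement in rank between replicates limit what any single member shows.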
